A study of Mus musculus with 42 samples.

Results

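Expression in kidney was set against expression in liver in mice that ate the same compounds. The comparison used 16 of the 42 libraries of the series. They were 4 kidneys and 4 livers of mice given enzastaurin, and 4 kidneys and 4 livers of mice given GDC-0941. All were male UM-HET3 mice, a genetically heterogeneous stock bred from several inbred strains, so animals differ in genotype. They were 4 months old and had eaten Purina 5LG6 chow with the compound for 1 month, starting at 3 months. Enzastaurin, an inhibitor of protein kinase C, was given at 75 ppm, and GDC-0941 (pictilisib), an inhibitor of phosphoinositide 3-kinase, at 50 ppm. Every library here is therefore from a treated animal, and no tissue of a mouse on chow alone entered. Another compound with both kidney and liver libraries, AS-703026, was left out because its livers carry an acute phase response. The choice of libraries therefore rested on expression as well as on labels. Both organs were frozen after removal, and the labels do not say which part of an organ was extracted, whether a kidney and a liver came from the same mouse, or whether each replicate is a separate mouse. The p-values therefore measure the spread between these libraries, and the organ cannot be told apart from any batch of collection, library preparation or sequencing that went with it. Bulk RNA was measured, so fewer cells of a type and less RNA per cell cannot be told apart either.

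Kidney and liver share much of their metabolism and differ in architecture. The kidney filters blood through podocyte-covered glomeruli and recovers most of the filtrate in the proximal tubule, an epithelium rich in mitochondria and brush border transporters. The loop of Henle, the distal tubule and the collecting duct then set the final salt, acid and water content of urine. Liver consists mainly of hepatocytes, which secrete most plasma proteins, make bile acids and urea, synthesise and package lipid and oxidise drugs, next to Kupffer cells, sinusoidal endothelium and stellate cells. Both organs make glucose, and the transcription factors HNF1 and HNF4 act in the epithelium of both.

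The kidney libraries held 1157094 to 4016758 counts (median 3352403) and the liver libraries 1940538 to 4361115 (median 2917063.5). Counts are of 3′ ends read by CEL-seq, so a level in CPM, counts scaled to a common library size, compares 1 gene between organs and not genes with each other. Genes of the mitochondrial genome took 7.01 to 15.5% of counts in kidneys and 2.39 to 3.60% in livers. Satellite-like gene models, repeats with no product, took a share of 18.8% in GDC-0941 kidney 1, 7.82% in GDC-0941 kidney 3 and 2.67% in enzastaurin kidney 1. That share was 0.0350 to 0.0811% in the other 5 kidneys and 0.124 to 0.645% in livers. Enzastaurin kidney 1, the shallowest library, also held more liver transcripts than the other kidneys. Of 392 liver-enriched genes with at least 100 CPM in liver, 384 had a count in it, against 281 to 318 in each of the other 7 kidneys, as the plot of the other organ's genes shows. Its median level of these genes was 1.87% of the liver level, against 0.397 to 1.10% in the other 7. Where its value of a liver gene lay well above those of the other kidneys, it is therefore given apart, and for some of these genes a log2 difference without it is added. The livers held a count of 126 to 160 of 196 kidney-enriched genes.

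**Figure D1:**
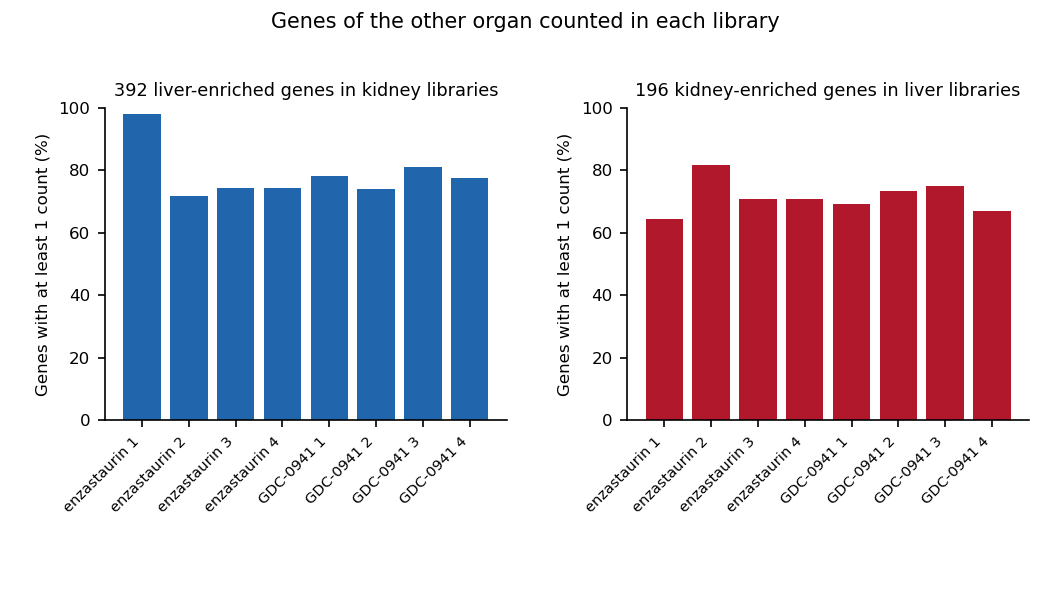
Share of the other organ's enriched genes with at least 1 count (y axis, percent), with a bar for each kidney library (left, 392 liver-enriched genes) and each liver library (right, 196 kidney-enriched genes). Enzastaurin kidney 1 held a count of 384 genes and the other 7 kidneys of 281 to 318, and the livers held 126 to 160 of theirs.

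The markers used as a check of the organ labels separated all 16 libraries. Kap, an androgen-driven protein of the proximal tubule, had 24962 to 48744 CPM (median 37142) in kidneys and 0 to 1.01 CPM (median 0) in livers. Slc34a1, which takes up phosphate at the brush border of the proximal tubule, had 2621 to 6289.9 CPM (median 4775) in kidneys and 0 to 0.891 CPM (median 0) in livers. Umod, uromodulin of the thick ascending limb, had 461 to 2238 CPM (median 1398) in kidneys and no count in livers. The values of these kidney markers in the organs lay far apart, with 7, 3 and 0 counts over all livers. Lrp2, the endocytic receptor megalin, had 399 to 936 CPM (median 756) in kidneys and 0 to 2.54 CPM (median 1.04) in livers. Of the liver markers, Alb, albumin, had 497 CPM in enzastaurin kidney 1, 0.891 to 4.66 CPM in the other 7 kidneys and 23743 to 33984 CPM (median 28044) in livers. Ahsg, the plasma protein fetuin-A, had 199 CPM in enzastaurin kidney 1, 0 to 0.518 CPM in the other 7 kidneys and 11762 to 16285 CPM (median 14374) in livers. Apoa2, an apolipoprotein of high-density lipoprotein, had 63.8 CPM in enzastaurin kidney 1, 0 to 1.33 CPM in the other 7 kidneys and 12039 to 15103 CPM (median 13392) in livers, and Fgb, the beta chain of fibrinogen, had 73.9 CPM in enzastaurin kidney 1, 0.192 to 4.42 CPM in the other 7 kidneys and 5213 to 7583 CPM (median 6192) in livers. No library of one organ reached the other organ's range for any of these genes.

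Of the 7 markers with 1 RefSeq promoter, the 5 whose window held a searched motif are shown, to make the motifs visible. The windows are the 250 bases before the annotated start, from RefSeq on build GRCm38.p6, 5′ to 3′ on the strand of the gene. Capitals mark TATAAA, the TATA box, or GTTAAT, the core of the motif of HNF1, which reads ATTAAC where it lies on the opposite strand.
Kap (chr6:133853668-133853917, minus strand): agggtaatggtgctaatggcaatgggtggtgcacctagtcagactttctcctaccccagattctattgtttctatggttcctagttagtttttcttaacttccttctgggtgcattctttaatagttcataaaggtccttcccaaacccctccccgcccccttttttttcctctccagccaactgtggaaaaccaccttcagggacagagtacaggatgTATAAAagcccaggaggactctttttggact
Slc34a1 (chr13:55399398-55399647, plus strand): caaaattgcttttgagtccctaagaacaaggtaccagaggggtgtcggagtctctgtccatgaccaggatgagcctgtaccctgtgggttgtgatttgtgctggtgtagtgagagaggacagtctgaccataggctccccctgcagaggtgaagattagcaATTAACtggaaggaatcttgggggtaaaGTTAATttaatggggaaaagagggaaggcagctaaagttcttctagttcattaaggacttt
Umod (chr7:119479263-119479512, minus strand): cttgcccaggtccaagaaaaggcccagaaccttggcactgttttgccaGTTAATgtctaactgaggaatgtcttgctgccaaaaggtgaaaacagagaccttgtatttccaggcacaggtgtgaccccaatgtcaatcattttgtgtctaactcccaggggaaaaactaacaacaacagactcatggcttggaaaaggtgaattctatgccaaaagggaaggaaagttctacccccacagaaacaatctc
Alb (chr5:90460620-90460869, plus strand): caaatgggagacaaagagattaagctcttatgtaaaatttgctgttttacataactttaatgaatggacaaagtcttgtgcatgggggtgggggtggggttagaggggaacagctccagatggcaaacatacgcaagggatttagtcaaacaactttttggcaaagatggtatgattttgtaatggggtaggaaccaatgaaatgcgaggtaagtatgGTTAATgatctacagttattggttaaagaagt
Fgb (chr3:83049864-83050113, minus strand): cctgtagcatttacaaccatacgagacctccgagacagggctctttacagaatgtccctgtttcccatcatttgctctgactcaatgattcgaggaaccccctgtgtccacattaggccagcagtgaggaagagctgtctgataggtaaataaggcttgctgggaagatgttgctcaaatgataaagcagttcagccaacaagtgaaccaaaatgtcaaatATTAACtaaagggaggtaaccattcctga
The TATA box of Kap began 31 bases before the start. GTTAAT began 32 bases before the start of Alb, 61 before that of Slc34a1 and 202 before that of Umod. It lay on the opposite strand 29 bases before the start of Fgb and again 89 bases before that of Slc34a1. GTTAAT thus occurred at markers of both organs, and TATAAA only at Kap. Over 32851 RefSeq promoters of the same length, 12.4% held TATAAA and 6.43% held GTTAAT on either strand. The other 3 motifs searched on both strands, CAAAGTCCA of HNF4, TTGCGCAA of C/EBP and TCAAGGTCA of the oestrogen-related receptors, were in 0.384%, 0.164% and 0.387% of promoters and in none of these 7 windows. Lrp2 and Ahsg held no searched motif. A comparison of promoters between kidney-enriched, liver-enriched and shared genes was void, because only 72.8%, 70.4% and 79.5% of these genes matched a promoter, under the 80% required.

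Most expressed genes differed between the organs. Of 11615 genes tested with edgeR's quasi-likelihood test, with compound as a covariate and Benjamini-Hochberg adjustment, 4571 (39.4%) were higher and 4234 (36.5%) lower in kidney at an adjusted p under 0.05. Since 75.8% of genes were called, a call says little by itself, and 3408 of the called genes differed by under 2-fold. Differences of at least 3 on the log2 scale were called for 1040 genes higher in kidney and 860 lower, and of at least 5 for 522 and 437. A gene was named kidney-enriched or liver-enriched if it was called, had an 8-fold ratio of the means, at least 5 CPM in the higher organ and no overlap between the libraries of the organs. That left 874 kidney-enriched genes (7.52% of those tested) and 785 liver-enriched genes (6.76%). The libraries of the organs did not overlap for 5357 genes (46.1%). Of the kidney-enriched genes, 96 had no count in any liver, and of the liver-enriched genes, 23 had none in any kidney and 53 had none in the 7 kidneys other than enzastaurin kidney 1.

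Enriched genes took a larger share of the counts in liver than in kidney. Liver-enriched genes took 0.782 to 1.61% of the counts of a kidney and 48.2 to 52.7% (median 50.0) of the counts of a liver. Kidney-enriched genes took 15.9 to 21.6% (median 19.9) of the counts of a kidney and 0.213 to 0.262% of those of a liver. A gene was at a shared level if it had at least 5 CPM in both organs and the 95% interval of its log2 difference lay within -1 and 1. Such genes numbered 3936 (33.9% of those tested), or 52.1% of the 7554 genes with at least 5 CPM in both organs, and they took 30.2 to 37.4% of kidney counts and 21.9 to 23.9% of liver counts. Of them, 1961 were also called, with differences bounded under 2-fold. Protein-coding genes made up 96.0% of kidney-enriched, 91.2% of liver-enriched and 97.7% of shared genes, against 94.6% of all genes tested.

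**Figure D2:**
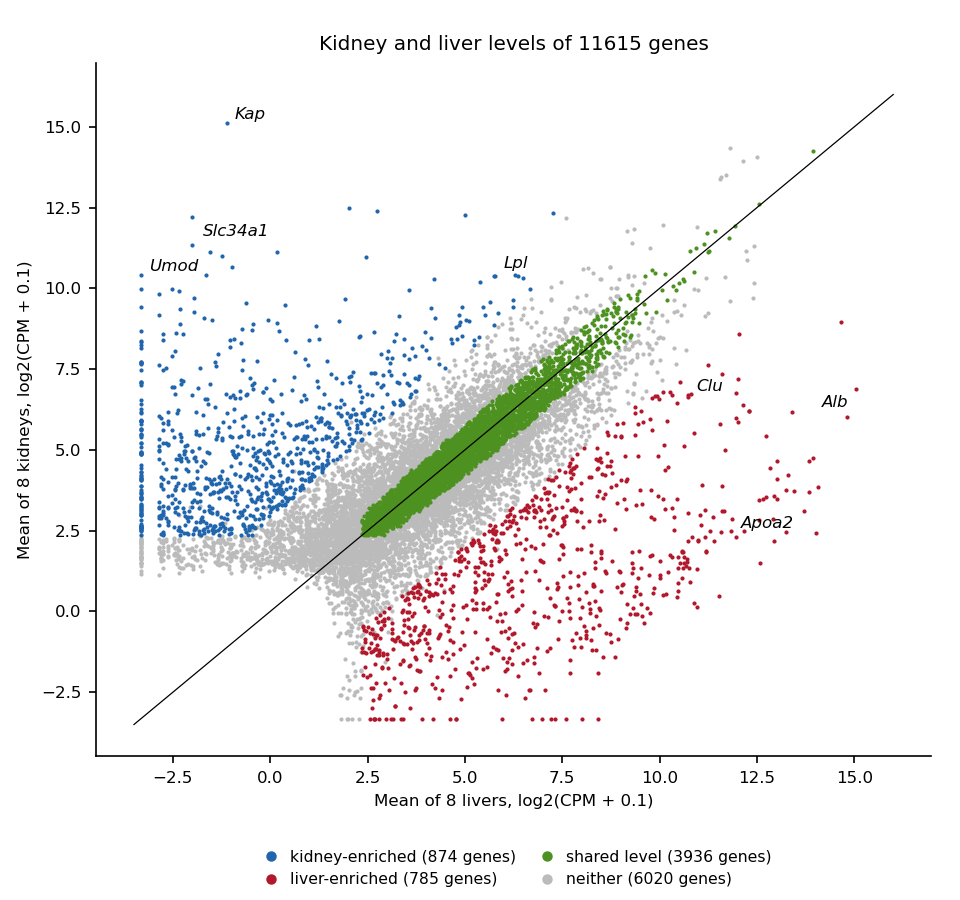
Mean level of each of 11615 genes in 8 kidneys (y axis) and 8 livers (x axis), both as log2(CPM + 0.1), with 874 kidney-enriched, 785 liver-enriched and 3936 shared genes in colour and the line of equal levels. The shared genes lie along the line, and the column of points at the left edge holds genes with no count in any liver.

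Replicates of an organ lay close together. Across the genes tested, 2 kidneys correlated at 0.908 to 0.980 on the log scale, 2 livers at 0.962 to 0.976 and a kidney with a liver at 0.462 to 0.558. The first principal component, 87.4% of the variance, separated kidneys from livers. The second, 2.20%, set GDC-0941 kidneys 1 and 3 apart from the rest. Scaling decides the balance of calls: with TMM, which assumes that most genes do not differ, the median log2 difference over all genes was 0.05, and with raw library totals it was 0.64. Under library totals 6750 genes were called higher and 2626 lower in kidney, or 72.0% higher against 51.9% with TMM, and 158 called genes had the opposite sign. Statements about small differences below are therefore relative to that choice. Where a median given for a list, or a called gene, changes direction under it, this is said. For genes that were not called it is not. Of the called genes named below, Slc26a1, Ass1, Hnf4a, Igfbp4 and Prkcb were no longer called under library totals.

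In kidney, most tested genes of each of the 6 tubular lists and of the podocyte list were higher. Counts per list are a description: a member that passed the low-count filter only through 1 organ had to differ, so they are read beside the shares of all genes, 39.4% higher and 36.5% lower. Unless a sentence says that they overlapped, the libraries of the organs did not overlap for a gene named as higher or lower. Of the 10 podocyte genes 9 passed the filter and 9 were higher in kidney, with a median log2 difference of 3.39. Podxl, podocalyxin of the podocyte surface, had 21.7 to 54.0 CPM (median 35.05) in kidneys and 2.35 to 4.39 CPM (median 3.15) in livers and a log2 difference of 3.50 ± 0.18. Clic5, an intracellular chloride channel protein of podocyte foot processes, had 74.5 to 147 CPM (median 135) in kidneys and 1.95 to 13.5 CPM (median 7.28) in livers, a difference of 4.14 ± 0.20. Cdkn1c, the cell cycle inhibitor p57, had 19.4 to 43.5 CPM in kidneys and 1.501 to 3.90 CPM in livers. Wt1, the podocyte transcription factor, had 2.44 to 7.77 CPM in kidneys and 0 to 1.52 CPM in livers.

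The proximal tubule had the longest list. Of its 40 genes, 37 passed the filter, 34 were higher and 1 lower in kidney, with a median log2 difference of 7.63, or 7.53 with genes absent from a tissue set at their bound. Miox, which opens the ring of inositol, had 1445 to 3046 CPM (median 2816) in kidneys and 0 to 1.19 CPM (median 0) in livers. Fut9, a fucosyltransferase that makes the Lewis X antigen of the brush border, had 414 to 1269 CPM (median 818) in kidneys and 0 to 0.488 CPM (median 0) in livers. Napsa, the aspartic protease napsin A, had 346 to 1339 CPM (median 655) in kidneys and 0 to 1.52 CPM (median 0.356) in livers, a log2 difference of 10.38 ± 0.45. These genes were near or at 0 in every liver. Slc22a8, the organic anion transporter OAT3, had 354 to 912 CPM (median 664) in kidneys and no count in livers, at least 4389-fold higher when livers are set at the floor of 3 counts over 8 libraries. Slc22a12, the urate transporter, had 253 to 408 CPM (median 311) in kidneys and no count in livers, at least 2113-fold higher. Slc13a3, a dicarboxylate carrier, had 213 to 507 CPM (median 382) in kidneys and 3.04 to 7.09 CPM (median 4.20) in livers, a log2 difference of 6.24 ± 0.18. Several transporters of the list were counted in both organs. Slc26a1, a sulfate and oxalate exchanger, was the member lower in kidney, with 79.7 to 228 CPM (median 132) in kidneys and 198 to 277 CPM (median 229) in livers and a log2 difference of -0.74 ± 0.16, though the ranges overlapped. Slc9a3r1, the scaffold NHERF1 that anchors brush border transporters, was at a shared level, with 94.6 to 129 CPM in kidneys and 99.9 to 132 CPM in livers and an interval of -0.13 to 0.20. Aqp1, the water channel of proximal tubule and thin limb, was also shared, with 152 to 244 CPM in kidneys and 104 to 159.8 CPM in livers, and the ranges overlapped. Slc23a1, the vitamin C transporter, was higher in kidney by 0.90 ± 0.12, with 194 to 325 CPM in kidneys and 116 to 171 CPM in livers.

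Beyond the proximal tubule every member that passed the filter was higher in kidney for the thick ascending limb (12 of 12), the distal convoluted and connecting tubule (11 of 11), the principal cell (10 of 10) and the intercalated cell (13 of 13). Slc12a1, the sodium, potassium and chloride cotransporter NKCC2 of the thick ascending limb, had 62.9 to 401 CPM (median 215) in kidneys and no count in livers, at least 1295-fold higher. Kcnj1, the potassium channel ROMK, had 147 to 199 CPM (median 183) in kidneys and no count in livers, at least 1153-fold higher. The cotransporter varied more between kidneys than the channel. Egf, the epidermal growth factor precursor made by the distal tubule, had 101 to 327 CPM (median 221) in kidneys and 0 to 1.78 CPM (median 0.634) in livers, a log2 difference of 8.14 ± 0.34 (edgeR adjusted p = 3.1e-14). Calb1, the calcium buffer calbindin, had 303 to 737 CPM (median 447) in kidneys and 0 to 0.507 CPM (median 0) in livers, and S100g, a second calcium-binding protein of the connecting tubule, had 292 to 815 CPM (median 529.6) in kidneys and 0 to 0.645 CPM (median 0.149) in livers. Kl, klotho, the co-receptor of the phosphate hormone FGF23, had 239 to 520.2 CPM (median 366) in kidneys and 0 to 0.393 CPM (median 0) in livers. Klk1, tissue kallikrein, had 494 to 1379 CPM (median 1001) in kidneys and 0 to 0.488 CPM (median 0) in livers. Livers thus held at most 4 counts of each of these 4 genes over all 8 libraries.

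Genes of the collecting duct were separated in the same way. Aqp2, the vasopressin-regulated water channel, had 55.0 to 95.03 CPM (median 66.8) in kidneys and no count in livers, at least 459-fold higher. Hsd11b2, which inactivates glucocorticoid so that aldosterone can act, had 32.6 to 81.1 CPM (median 60.1) in kidneys and no count in livers, at least 393-fold higher. The subunits of the epithelial sodium channel were unequal in liver. Scnn1a, its alpha subunit, had 26.1 to 76.6 CPM (median 48.7) in kidneys and 6.24 to 13.1 CPM (median 10.7) in livers, a log2 difference of 2.26 ± 0.17. Scnn1g, its gamma subunit, had 10.9 to 32.9 CPM (median 19.1) in kidneys and no count in livers. Aqp4, another water channel, was also present in both organs, with 4.41 to 105 CPM (median 22.2) in kidneys and 4.17 to 15.01 CPM (median 10.2) in livers and overlapping ranges, a log2 difference of 1.75 ± 0.59 (edgeR adjusted p = 0.012). Without the 3 kidneys of high satellite share it was 0.45 ± 0.41, and the gene was no longer called (edgeR adjusted p = 0.32). In the intercalated cell list, Atp6v0a4 and Atp6v1b1, subunits of the plasma membrane proton pump whose loss causes renal tubular acidosis in humans, had 70.4 to 101 CPM and 35.7 to 63.2 CPM in kidneys, and neither had a count in livers. Car12, a membrane carbonic anhydrase, had 197 to 455 CPM (median 332) in kidneys and no count in livers, at least 2073-fold higher. Slc26a4, the chloride and bicarbonate exchanger pendrin, had 49.4 to 142 CPM (median 79.7) in kidneys and 1.29 to 8.12 CPM (median 5.24) in livers. Rhbg, an ammonia channel, differed least in that list, with 21.4 to 39.4 CPM in kidneys and 7.81 to 29.4 CPM in livers, overlapping ranges and a log2 difference of 0.76 ± 0.23.

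The list of the thin limb and inner medulla was mixed. Of its 12 members 7 passed the filter, of which 6 were higher and 1 lower in kidney, and 2 were kidney-enriched. The others were near 0 in both organs. Over all kidneys and all livers, Slc14a2 had 2 and 0 counts, Aqp5 0 and 0, and Akr1b3 14 and 16. Krt19 had 13 and 7 counts, and Upk1b 25 and 7. Krt7, a keratin of simple epithelia, had 22.8 to 38.8 CPM (median 32.2) in kidneys and 0 to 2.68 CPM (median 0.580) in livers. Spp1, osteopontin, had 102 to 232 CPM (median 129.9) in kidneys and 7.15 to 34.3 CPM (median 24.5) in livers, a log2 difference of 2.56 ± 0.23. Slc5a3, the inositol transporter that answers to high salt, had 17.1 to 102 CPM (median 54.6) in kidneys and 4.57 to 12.4 CPM (median 9.12) in livers, and Slc6a6, the taurine transporter, had 219 to 594 CPM (median 382) in kidneys and 111 to 225 CPM (median 170.2) in livers with ranges that overlapped only at their ends. Clu, the secreted chaperone clusterin, went the other way, with 56.0 to 156 CPM (median 91.2) in kidneys and 1529 to 1805 CPM (median 1714) in livers and a log2 difference of -4.06 ± 0.19 (edgeR adjusted p = 1.9e-13).

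**Figure D3:**
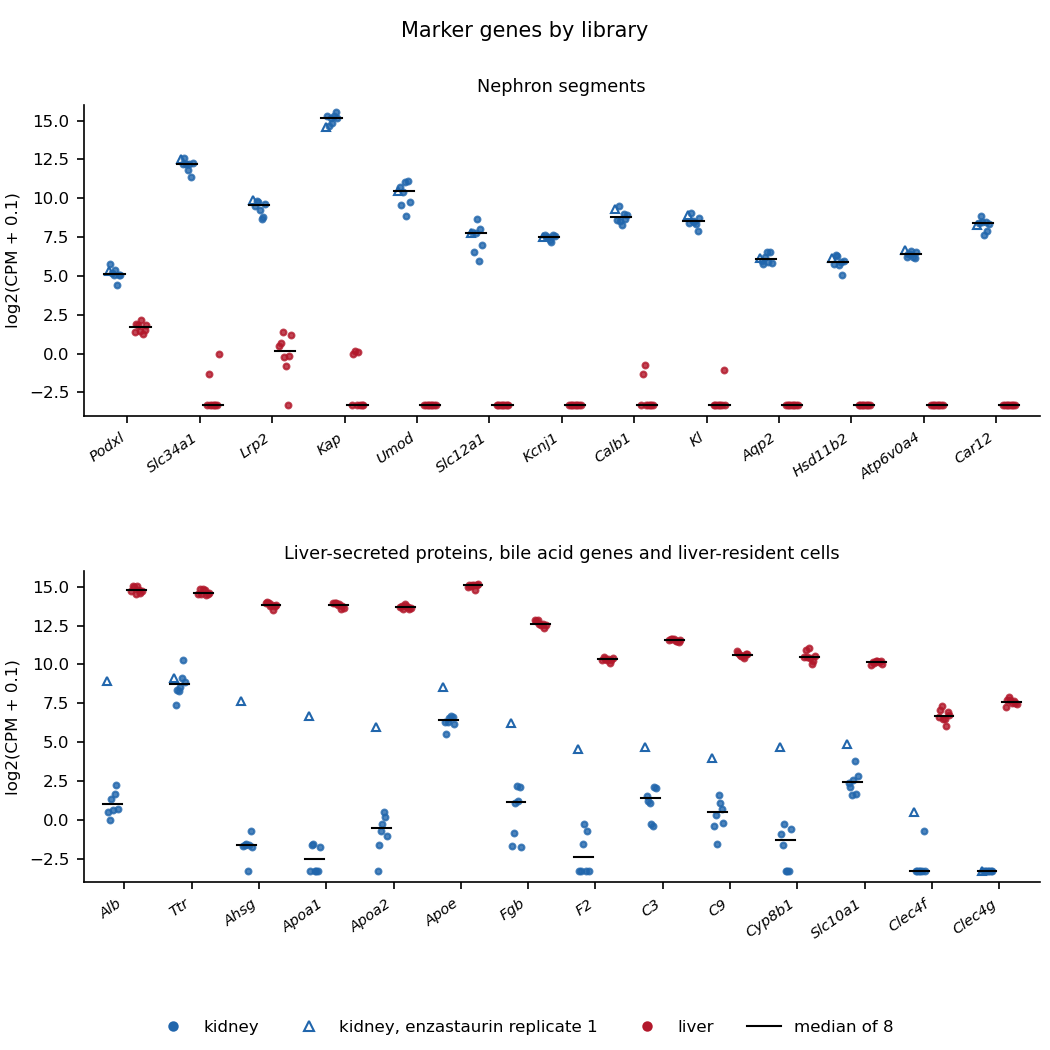
Levels of marker genes in each library (y axis, log2(CPM + 0.1)), with 8 kidneys left of 8 livers for each gene, a bar at the median and an open triangle for enzastaurin kidney 1. The upper panel holds genes of nephron segments, which lie higher in kidneys. The lower panel holds plasma protein, bile acid and liver-resident cell genes, which lie higher in livers; Alb, Ahsg and Apoa2 lie low in 7 kidneys with the triangle above them.

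In liver, the transcripts of secreted plasma proteins stood apart as a group. All 28 of 28 plasma carriers tested were lower in kidney, with a median log2 difference of -9.21, or -10.32 without enzastaurin kidney 1. For Alb the difference was -10.31 ± 1.55 with that library and -13.74 ± 0.34 without it. Trf, the iron carrier transferrin, had 81.98 CPM in enzastaurin kidney 1, 1.47 to 6.26 CPM in the other 7 kidneys and 9303 to 13569.9 CPM (median 10979) in livers. Gc, the vitamin D-binding protein, had 87.4 CPM in enzastaurin kidney 1, 2.45 to 11.9 CPM in the other 7 kidneys and 7639 to 9201 CPM (median 8318) in livers. Serpina3k, a protease inhibitor, had 114 CPM in enzastaurin kidney 1, 0 to 0.518 CPM in the other 7 kidneys and 13572 to 23130.1 CPM (median 15747) in livers. All were lower in the other 7 kidneys than in enzastaurin kidney 1, and Gc was counted in every kidney. Ttr, transthyretin, the carrier of thyroxine, had a level in kidneys that did not rest on 1 library, with 565 CPM in enzastaurin kidney 1, 166 to 1226 CPM in the other 7 kidneys and 23177 to 29789 CPM (median 24317) in livers and a log2 difference of -5.78 ± 0.39. Afm, afamin, a carrier of vitamin E and Wnt proteins, had such a level too, with 20.2 CPM in enzastaurin kidney 1, 14.9 to 26.8 CPM in the other 7 kidneys and 282 to 369 CPM (median 341) in livers and a difference of -3.99 ± 0.12. Cp, the copper oxidase ceruloplasmin, had 32.9 CPM in enzastaurin kidney 1, 11.5 to 33.1 CPM in the other 7 kidneys and 1048 to 1479 CPM (median 1167) in livers.

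Among apolipoproteins and lipoprotein enzymes, 16 of 17 tested were lower in kidney and 1 was higher. Apoa1, the main protein of high-density lipoprotein, had 103 CPM in enzastaurin kidney 1, 0 to 0.248 CPM in the other 7 kidneys and 12278 to 16022 CPM (median 14834) in livers. Apoe, the ligand of lipoprotein remnant receptors, had 374 CPM in enzastaurin kidney 1, 45.7 to 103 CPM in the other 7 kidneys and 28112 to 36605 CPM (median 34912) in livers, a log2 difference of -8.21 ± 0.50 (edgeR adjusted p = 1.1e-11). Apob, the protein of very low density lipoprotein, had 0.891 to 5.40 CPM (median 4.17) in kidneys and 172 to 295 CPM (median 211) in livers, and Mttp, which loads lipid onto it, had 10.4 to 27.5 CPM (median 16.6) in kidneys and 135 to 177 CPM (median 165) in livers. Apom, a carrier of sphingosine 1-phosphate, was among the less unequal members, with 44.9 to 100.3 CPM (median 80.7) in kidneys and 240.1 to 468 CPM (median 328) in livers. Lpl, the lipoprotein lipase that unloads fatty acids from triglyceride, was the member higher in kidney, with 879 to 1703 CPM (median 1439) in kidneys and 28.9 to 164 CPM (median 37.0) in livers and a difference of 4.67 ± 0.33 (edgeR adjusted p = 1.2e-10). The highest liver value came from enzastaurin liver 2.

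Clotting factors divided by role. Of 22 members tested, 18 were lower in kidney, among them the chains of fibrinogen and the circulating proenzymes. Fga, the fibrinogen alpha chain, had 137 CPM in enzastaurin kidney 1, 13.8 to 47.8 CPM in the other 7 kidneys and 5712 to 8682 CPM (median 6148) in livers, and F2, prothrombin, had 23.5 CPM in enzastaurin kidney 1, 0 to 0.737 CPM in the other 7 kidneys and 1073 to 1396 CPM (median 1289.8) in livers. Plg, plasminogen, had 6.05 CPM in enzastaurin kidney 1, 0 to 1.04 CPM in the other 7 kidneys and 1739 to 2206 CPM (median 2055) in livers. Some circulating factors had a substantial level in every kidney. Serpinf2, antiplasmin, had 174 to 240.3 CPM (median 213) in kidneys and 518 to 742 CPM (median 591) in livers, F13b, the carrier subunit of factor XIII, had 124 to 246 CPM (median 158) in kidneys and 393 to 534 CPM (median 447) in livers, and Proc, protein C, had 76.6 to 119 CPM (median 111) in kidneys and 364 to 439 CPM (median 411) in livers. Their log2 differences were -1.52 ± 0.10, -1.43 ± 0.13 and -1.91 ± 0.09. The 4 members higher in kidney were the plasminogen activators and cell surface regulators. Plau, urokinase, had 49.2 to 203 CPM (median 80.2) in kidneys and 0 to 0.893 CPM (median 0) in livers, a difference of 8.29 ± 0.46, or 9.18 ± 0.51 without enzastaurin liver 2. Plat, tissue plasminogen activator, had 3.36 to 7.99 CPM in kidneys and 0 to 0.786 CPM in livers. F3, tissue factor, had 2.97 to 8.10 CPM in kidneys and 0.645 to 3.14 CPM in livers with a small overlap, and Thbd, thrombomodulin, had 5.70 to 11.4 CPM in kidneys and 0.488 to 7.74 CPM in livers, also overlapping.

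Of 24 complement genes tested, 22 were lower in kidney and 1, Cd55, was higher within a shared level. C3, the central component, had 26.2 CPM in enzastaurin kidney 1, 0.664 to 4.14 CPM in the other 7 kidneys and 2807 to 3191 CPM (median 3055) in livers, a log2 difference of -9.47 ± 0.57, or -10.27 ± 0.27 without that library. C9, the pore-forming component, had 15.5 CPM in enzastaurin kidney 1, 0.248 to 2.95 CPM in the other 7 kidneys and 1356 to 1824 CPM (median 1584) in livers. C8a, the alpha chain of the eighth component, had 18.7 to 61.6 CPM (median 30.0) in kidneys and 970.1 to 1318 CPM (median 1080.0) in livers, so that every kidney held it. Cd55, decay-accelerating factor, which protects host cells, had 9.58 to 15.3 CPM in kidneys and 7.13 to 11.7 CPM in livers, a difference of 0.43 ± 0.13 and overlapping ranges, and was not called (edgeR adjusted p = 0.193) with the libraries of another compound, AS-703026, added to the fit. C1qb, a chain of C1q, which macrophages make, had 5.89 to 14.8 CPM (median 12.3) in kidneys and 44.4 to 111 CPM (median 79.5) in livers.

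The bile acid list gave the same order with exceptions in transport. Of 21 members, 16 were lower and 4 higher in kidney. Cyp7a1, the rate-limiting enzyme of bile acid synthesis, had 2.69 CPM in enzastaurin kidney 1, 0 to 2.95 CPM in the other 7 kidneys and 117 to 212 CPM (median 160.3) in livers. Cyp8b1, which makes cholic acid, had 26.2 CPM in enzastaurin kidney 1, 0 to 0.743 CPM in the other 7 kidneys and 1065 to 2177 CPM (median 1419) in livers. Slc10a1, the sinusoidal bile acid importer NTCP, had 28.9 CPM in enzastaurin kidney 1, 2.97 to 13.5 CPM in the other 7 kidneys and 999 to 1184 CPM (median 1136) in livers. Slc51a and Slc51b, the subunits of the basolateral bile acid exporter, were higher in kidney: Slc51a had 44.9 to 80.6 CPM (median 57.0) in kidneys and no count in livers, at least 383-fold higher, and Slc51b had 18.1 to 47.1 CPM (median 28.5) in kidneys and 0 to 1.79 CPM (median 0.768) in livers. Amacr, a racemase of bile acid and branched fatty acid oxidation, was also higher, with 556 to 737 CPM (median 628) in kidneys and 232 to 375 CPM (median 314) in livers and a difference of 1.08 ± 0.11. Nr1h4, the bile acid receptor FXR, was at a shared level, with 139.9 to 247 CPM (median 166) in kidneys and 154 to 224 CPM (median 191) in livers and an interval of -0.31 to 0.13. Its target in liver Nr0b2, the repressor SHP, had 0.518 to 3.24 CPM (median 1.97) in kidneys and 33.0 to 96.0 CPM (median 63.0) in livers.

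Genes of cells other than the epithelium differed between the organs as well. The 6 Kupffer cell genes tested were all lower in kidney, and summed they reached 0 to 6.63 CPM in kidneys and 188 to 407 CPM in livers. Cd5l, a protein secreted by resident macrophages, had 0 to 1.47 CPM (median 0) in kidneys and 44.5 to 123 CPM (median 70.4) in livers. Macrophage genes of all organs were lower in kidney too, 8 of 8, but present in each kidney: Csf1r, the receptor of their growth factor, had 12.6 to 38.8 CPM (median 23.5) in kidneys and 37.4 to 78.6 CPM (median 47.9) in livers, with overlapping ranges. For the sinusoidal endothelium, Clec4g, a lectin, had no count in kidneys and 151 to 241 CPM (median 196) in livers, at least 1794-fold lower in kidney. Stab2, the hyaluronan scavenger receptor, had 0.668 to 8.84 CPM (median 2.65) in kidneys and 15.5 to 39.6 CPM (median 26.0) in livers. Fcgr2b, an inhibitory antibody receptor from the same list, was at a shared level, with 36.3 to 77.3 CPM (median 63.0) in kidneys and 60.2 to 79.5 CPM (median 70.3) in livers. All 6 stellate cell genes tested were lower in kidney; Reln, the matrix protein reelin, had 0.891 to 12.9 CPM (median 1.87) in kidneys and 29.0 to 44.3 CPM (median 36.2) in livers, and Colec11, a collectin, had 0 to 1.99 CPM (median 0.720) in kidneys and 40.1 to 57.8 CPM (median 49.7) in livers.

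Of 7 genes listed for kidney endothelium, 5 were higher and 1 lower in kidney, with a median log2 difference of 2.49. Emcn, the sialomucin endomucin, had 25.5 to 78.2 CPM (median 50.4) in kidneys and 1.46 to 8.38 CPM (median 4.10) in livers, and Plvap, of the diaphragms of fenestrae, had 70.4 to 106 CPM (median 78.0) in kidneys and 28.9 to 54.1 CPM (median 44.0) in livers. Both were higher in kidney, whereas Ehd3, a membrane trafficking ATPase of the glomerular endothelium, was the lower one, with 22.1 to 38.2 CPM (median 24.9) in kidneys and 103 to 157 CPM (median 117) in livers and a difference of -2.13 ± 0.12. Kdr, VEGF receptor 2, and Tie1, an endothelial receptor kinase, were at shared levels, with intervals of -0.17 to 0.47 and -0.46 to 0.07. Over the 7 genes listed for all endothelium, 1 was higher and 4 lower, with a median of -0.64, or 3 and 2 with a median of -0.06 under library totals.

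Markers of blood and of neighbouring tissue were checked in the same way. Summed red blood cell genes reached 1879 to 5035 CPM in kidneys and 1695 to 5756 CPM in livers. Of 5 tested, 3 were higher in kidney and none lower. These 3 include Slc4a1, which is also listed for the intercalated cell. Alas2, of the same red blood cell list, was under the filter, with 1 count in kidneys and 43 in livers. Hbb-bs, a beta globin, had 791 to 2283 CPM in kidneys and 1017 to 3361 CPM in livers. Of 8 adipocyte genes 2 passed the filter, neither called, and the list summed to 63.2 to 121 CPM in kidneys and 12.4 to 652 CPM in livers. The upper end came from enzastaurin liver 2, the library with the most Lpl, in which Cfd, adipsin, reached 339.8 CPM and Fabp4, a fatty acid carrier of adipocytes and endothelium, 169 CPM. None of the 7 adrenal cortex genes passed the filter, and of the pancreas list only Cela1 did, at a shared level. Smooth muscle genes were higher in kidney for 3 of 5 and lower for none, with a median log2 difference of 1.42; Acta2, smooth muscle actin, had 3.99 to 34.3 CPM in kidneys and 1.34 to 7.09 CPM in livers, overlapping. The part of these cells in other results was not tested.

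Carbohydrate metabolism held both shared and organ-specific steps. The enzymes that commit carbon to glucose were at shared levels: Pck1, the phosphoenolpyruvate carboxykinase of the cytosol, had 959 to 1676 CPM (median 1199) in kidneys and 1048 to 2692 CPM (median 1447) in livers, and G6pc, the catalytic subunit of glucose 6-phosphatase, had 116 to 377 CPM (median 208) in kidneys and 186 to 459.7 CPM (median 287) in livers. Their log2 differences were -0.29 ± 0.19 and -0.45 ± 0.22, with intervals of -0.69 to 0.10 and -0.90 to -0.00. Other steps differed: Fbp1, fructose 1,6-bisphosphatase, had 432 to 689 CPM (median 605) in kidneys and 1298 to 1628 CPM (median 1535) in livers, a difference of -1.39 ± 0.12, and Slc37a4, the glucose 6-phosphate transporter of the endoplasmic reticulum, had 134 to 233 CPM (median 159) in kidneys and 59.9 to 105 CPM (median 83.3) in livers, a difference of 1.01 ± 0.13. The aminotransferases that feed this pathway from alanine and aspartate were lower in kidney. Gpt2 had 20.7 to 37.6 CPM (median 27.9) in kidneys and 202 to 267 CPM (median 238) in livers, and Got2 had 88.5 to 147 CPM (median 107) in kidneys and 964 to 1228 CPM (median 1103) in livers, a difference of -3.30 ± 0.12. Over the 14 genes tested, 5 were higher and 6 lower in kidney, and the median of -0.37 became 0.22 under library totals. In the list of glycolysis and glycogen, 10 were higher and 10 lower. Tpi1, triose phosphate isomerase, was at a shared level, with 365 to 577 CPM in kidneys and 237 to 363 CPM in livers.

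Genes of ketone body metabolism differed in both directions. Oxct1, the transferase that starts the oxidation of ketone bodies, had 1702 to 2404 CPM (median 2005) in kidneys and 2.23 to 12.2 CPM (median 5.03) in livers, a log2 difference of 8.49 ± 0.29 (edgeR adjusted p = 1.7e-15). Acat1, the thiolase of the mitochondrion, was higher by 1.15 ± 0.11. Bdh1, the mitochondrial 3-hydroxybutyrate dehydrogenase, had 84.6 to 148 CPM (median 106) in kidneys and 274 to 449.9 CPM (median 324) in livers, and Bdh2, its cytosolic relative, had 355 to 529 CPM (median 454) in kidneys and 47.1 to 77.3 CPM (median 57.9) in livers. The 2 dehydrogenases thus stood in opposite order.

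Genes of fatty acid oxidation differed in both directions. Of 28 genes tested, 13 were at a shared level, 7 were higher and 16 lower in kidney, with a median of -0.44. Under library totals 13 were higher and 12 lower, with a median of 0.14. Cpt1a, the carnitine palmitoyltransferase of liver and kidney, had 199 to 321 CPM (median 239.8) in kidneys and 219.8 to 382 CPM (median 264) in livers, and Acadm, the medium-chain dehydrogenase, had 189 to 500.0 CPM (median 307) in kidneys and 255 to 338 CPM (median 291) in livers. Their ranges overlapped. Acaa2, a mitochondrial thiolase, stood out, with 44.9 to 118 CPM (median 89.9) in kidneys and 1277 to 1498 CPM (median 1423) in livers and a difference of -4.01 ± 0.16. Acsl1, which activates long-chain fatty acids, had 62.6 to 122 CPM (median 101) in kidneys and 690.4 to 1112 CPM (median 892) in livers, a difference of -3.19 ± 0.14. In the peroxisome, Acox2, the oxidase of bile acid precursors, was lower, with a difference of -3.03 ± 0.18, and Acox3, of branched fatty acids, higher by 2.77 ± 0.13. The citric acid cycle had 10 genes higher and 7 lower of 21, or 17 and 3 under library totals. Idh3g, a subunit of isocitrate dehydrogenase, had 187 to 316 CPM (median 248) in kidneys and 46.1 to 64.0 CPM (median 51.8) in livers. Suclg1, a subunit of succinate CoA ligase, was lower, with 243 to 326 CPM (median 292) in kidneys and 769.5 to 962 CPM (median 839) in livers, and Sucla2, its partner of ADP type, was shared, with 214 to 332 CPM in kidneys and 236 to 288 CPM in livers.

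Lipid synthesis was lower in kidney almost throughout. Of 17 fatty acid synthesis genes, 15 were lower and 2 higher. Fasn, fatty acid synthase, had 7.09 to 16.8 CPM (median 14.7) in kidneys and 94.4 to 427 CPM (median 187) in livers, a difference of -4.04 ± 0.28. Scd1 and Scd2, both desaturases of stearoyl CoA, were in opposite order: Scd1 had 13.7 to 116 CPM (median 52.6) in kidneys and 867 to 5539 CPM (median 2792) in livers, a difference of -5.76 ± 0.51, and Scd2 had 41.9 to 118 CPM (median 71.2) in kidneys and 1.93 to 10.7 CPM (median 5.23) in livers, a difference of 3.68 ± 0.23. Me1, malic enzyme, a source of NADPH, was the other gene higher in kidney, with 493 to 749.9 CPM (median 613) in kidneys and 157 to 361 CPM (median 251) in livers. Srebf1, the transcription factor of this pathway, had 3.62 to 13.4 CPM (median 9.39) in kidneys and 71.3 to 133 CPM (median 86.1) in livers. Of 21 sterol genes, 20 were lower and 0 higher. Sc5d, a late desaturase of cholesterol synthesis, had 6.05 to 29.6 CPM (median 10.1) in kidneys and 237 to 596 CPM (median 397) in livers. Cyp51, the lanosterol demethylase, was the 1 member not called, and 1 of 3 at a shared level. It had 131 to 539 CPM (median 289.6) in kidneys and 209 to 409 CPM (median 334) in livers and an interval of -0.66 to 0.42.

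Nitrogen handling was divided by step. The first steps of the urea cycle and its last were low in kidneys: Cps1, carbamoyl phosphate synthetase, had 47.7 CPM in enzastaurin kidney 1, 0 to 9.83 CPM in the other 7 kidneys and 1726 to 2691 CPM (median 2094) in livers, Otc, ornithine transcarbamylase, had 42.3 CPM in enzastaurin kidney 1, 0 to 0.737 CPM in the other 7 kidneys and 2248 to 2713 CPM (median 2544) in livers, and Arg1, the arginase that releases urea, had 22.2 CPM in enzastaurin kidney 1, 0 to 0.768 CPM in the other 7 kidneys and 1344 to 1926 CPM (median 1653) in livers. The arginine-making steps between them were present in both organs. Ass1, argininosuccinate synthetase, had 512 to 1055 CPM (median 809.9) in kidneys and 1018 to 1553 CPM (median 1280.5) in livers, overlapping and lower in kidney, with a difference of -0.72 ± 0.15, and Asl, the lyase, had 108 to 231 CPM (median 184) in kidneys and 311 to 515 CPM (median 387) in livers, lower, with a difference of -1.15 ± 0.15. Glul, glutamine synthetase, had 172 to 283 CPM (median 236) in kidneys and 466 to 921 CPM (median 639) in livers. Of 46 genes of amino acid breakdown, 33 were lower and 10 higher in kidney. For tyrosine, Tat, the aminotransferase of the first step, had 13.4 CPM in enzastaurin kidney 1, no count in the other 7 kidneys and 326 to 701 CPM (median 530.5) in livers, and Hpd, the dioxygenase after it, had 32.7 to 63.7 CPM (median 43.0) in kidneys and 1709.5 to 2123 CPM (median 1843) in livers. Fah, the last enzyme, was lower too, with a difference of -1.02 ± 0.09. For tryptophan, Tdo2, the first dioxygenase, had 31.6 CPM in enzastaurin kidney 1, 0 to 2.21 CPM in the other 7 kidneys and 2405 to 3187 CPM (median 2701) in livers, and Acmsd, which diverts the chain away from NAD, was higher in kidney, with 356 to 658 CPM (median 547) in kidneys and 34.2 to 104 CPM (median 67.9) in livers and a difference of 2.92 ± 0.15. Among branched-chain enzymes, Mut, methylmalonyl CoA mutase, was higher by 1.25 ± 0.15, and Hibadh, of valine breakdown, had 769.6 to 981 CPM (median 879) in kidneys and 429.9 to 505 CPM (median 460.4) in livers. Gnmt, glycine N-methyltransferase, had 79.6 to 178 CPM (median 99.4) in kidneys and 3566 to 4663 CPM (median 3873) in livers, a difference of -5.21 ± 0.21.

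Creatine synthesis was split between the organs at the level of RNA. Gatm, the amidinotransferase of the first step, had 421 to 757 CPM (median 525) in kidneys and 12.9 to 24.7 CPM (median 17.9) in livers, a log2 difference of 4.85 ± 0.16 (edgeR adjusted p = 8.8e-16). Gamt, the methyltransferase of the second step, had 10.1 to 21.2 CPM (median 18.01) in kidneys and 482 to 669 CPM (median 581) in livers, a difference of -5.07 ± 0.12 (edgeR adjusted p = 1.6e-17). Neither pair of ranges came near the other. In carnitine synthesis, Aldh9a1, of the third step, had 847 to 1261 CPM (median 991) in kidneys and 411 to 518 CPM (median 473) in livers, and Bbox1, of the last, had 9.41 CPM in enzastaurin kidney 1, 0.648 to 4.14 CPM in the other 7 kidneys and 278 to 330.4 CPM (median 301) in livers. Cdo1, the cysteine dioxygenase that leads to taurine, had 87.9 to 141 CPM (median 96.4) in kidneys and 1469.6 to 2168 CPM (median 1772) in livers.

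Oxidases of the peroxisome were likewise assigned to different organs. Dao, D-amino acid oxidase, had 97.2 to 161 CPM (median 125) in kidneys and no count in livers, at least 831-fold higher. Uox, urate oxidase, had 16.1 CPM in enzastaurin kidney 1, 0 to 2.59 CPM in the other 7 kidneys and 1199 to 1630.0 CPM (median 1422) in livers. Cat, catalase, had 719 to 971 CPM (median 852) in kidneys and 4637 to 6696 CPM (median 5069) in livers, a difference of -2.68 ± 0.17. Prdx5, a peroxiredoxin, had 2053 to 3437 CPM (median 2665) in kidneys and 510.0 to 723 CPM (median 625) in livers, a difference of 2.13 ± 0.15. Catalase thus was lower and the peroxiredoxin higher in kidney.

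Genes of drug oxidation were mostly lower in kidney. Of 31 cytochrome P450 genes tested, 25 were lower and 5 higher in kidney. These families hold close copies, so counts could be split between members. Cyp2c29 had 17.5 CPM in enzastaurin kidney 1, 0 to 3.11 CPM in the other 7 kidneys and 4789 to 8357 CPM (median 5827) in livers, Cyp3a11 had 52.4 CPM in enzastaurin kidney 1, 0 to 2.07 CPM in the other 7 kidneys and 4323 to 11516 CPM (median 7899.5) in livers, and Cyp2f2 had 32.3 CPM in enzastaurin kidney 1, 5.18 to 10.2 CPM in the other 7 kidneys and 6758 to 10178 CPM (median 7889.9) in livers. In kidney Cyp4b1, which oxidises fatty acids and foreign compounds, was higher, with 2411 to 6225 CPM (median 5315) in kidneys and 22.6 to 47.3 CPM (median 29.1) in livers and a difference of 7.25 ± 0.25 (edgeR adjusted p = 1.8e-15). Cyp2j5, which makes epoxides of arachidonic acid, had 945 to 1235 CPM (median 1007) in kidneys and 400.2 to 459.6 CPM (median 428) in livers, and Cyp4a10, a fatty acid hydroxylase, had 50.8 to 309 CPM (median 154) in kidneys and 8.62 to 132 CPM (median 47.9) in livers, overlapping. Cyp2e1, which oxidises ethanol, was abundant in both organs, with 1106 to 2306 CPM (median 2091) in kidneys and 3660.0 to 5480.1 CPM (median 5077) in livers and a difference of -1.40 ± 0.20. Cyp4a12a, the androgen-dependent hydroxylase of male mice, had 922 to 1754 CPM (median 1174) in kidneys and 2431 to 4158 CPM (median 3409) in livers. Conjugating enzymes numbered 13 higher and 25 lower of 40. Gsta3, a glutathione transferase, had 37.6 to 89.0 CPM (median 62.3) in kidneys and 3538 to 4817 CPM (median 3926) in livers, and Mgst1, its microsomal relative, had 187 CPM in enzastaurin kidney 1, 49.5 to 86.9 CPM in the other 7 kidneys and 3921 to 4851 CPM (median 4586) in livers. Ugt2b38, a glucuronosyltransferase, had 620.1 to 1263 CPM (median 992) in kidneys and 3.56 to 28.4 CPM (median 10.5) in livers, and Acsm2, which activates medium-chain and aromatic acids for conjugation, had 3622 to 6122 CPM (median 5770.3) in kidneys and 1.95 to 10.5 CPM (median 7.404) in livers, a difference of 9.67 ± 0.36. Keg1, a glycine acyltransferase-like protein of kidney, had 3262 to 4068 CPM (median 3629) in kidneys and 551 to 789 CPM (median 611) in livers, and Glyat, glycine N-acyltransferase, was at a shared level, with 457 to 769 CPM in kidneys and 404 to 488 CPM in livers.

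Of 23 pairs of related enzymes, transporters or factors in which 1 partner is listed for kidney and the other for liver, 13 had both partners higher in their listed organ. Of the 46 genes, 39 were tested; 17 kidney partners were higher in kidney and 3 lower, and 18 liver partners were lower in kidney and none higher. Gls2, the liver glutaminase, had 0.672 CPM in enzastaurin kidney 1, no count in the other 7 kidneys and 43.2 to 70.3 CPM (median 56.5) in livers. Hk1, hexokinase, had 31.0 to 68.5 CPM (median 54.4) in kidneys and 0.750 to 5.06 CPM (median 2.84) in livers. Ldhb, the heart-type lactate dehydrogenase subunit, had 597 to 939 CPM (median 842) in kidneys and 1.57 to 6.59 CPM (median 3.49) in livers, a log2 difference of 7.78 ± 0.22 (edgeR adjusted p = 9.5e-17). Its partner Ldha was abundant in both organs, with 892 to 1162 CPM (median 1082) in kidneys and 1146 to 1456 CPM (median 1319) in livers, overlapping, and a difference of -0.29 ± 0.11, which became 0.30 ± 0.12 under library totals. Aldoa, an aldolase of glycolysis, had 474 to 663 CPM (median 584) in kidneys and 71.6 to 121 CPM (median 88.1) in livers. Hao2, a hydroxyacid oxidase, had 275 to 552 CPM (median 456) in kidneys and 0 to 1.46 CPM (median 0.422) in livers, and Hao1, its partner, had 4.70 CPM in enzastaurin kidney 1, 0 to 1.55 CPM in the other 7 kidneys and 476 to 718 CPM (median 645) in livers. Gys2 and Pygl, glycogen synthase and phosphorylase of liver, were lower in kidney, with differences of -3.09 ± 0.12 and -5.85 ± 0.16, and Gys1 and Pygb were higher by 2.49 ± 0.27 and 1.56 ± 0.22. The kidney partners lower in kidney were Sdsl, Bhmt2 and Agxt2; Bhmt2 had 77.5 to 149 CPM (median 109) in kidneys and 184 to 237 CPM (median 205) in livers, and its partner Bhmt, betaine-homocysteine methyltransferase, had 31.6 CPM in enzastaurin kidney 1, 1.30 to 3.68 CPM in the other 7 kidneys and 1323 to 3442 CPM (median 1992) in livers.

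**Figure D4:**
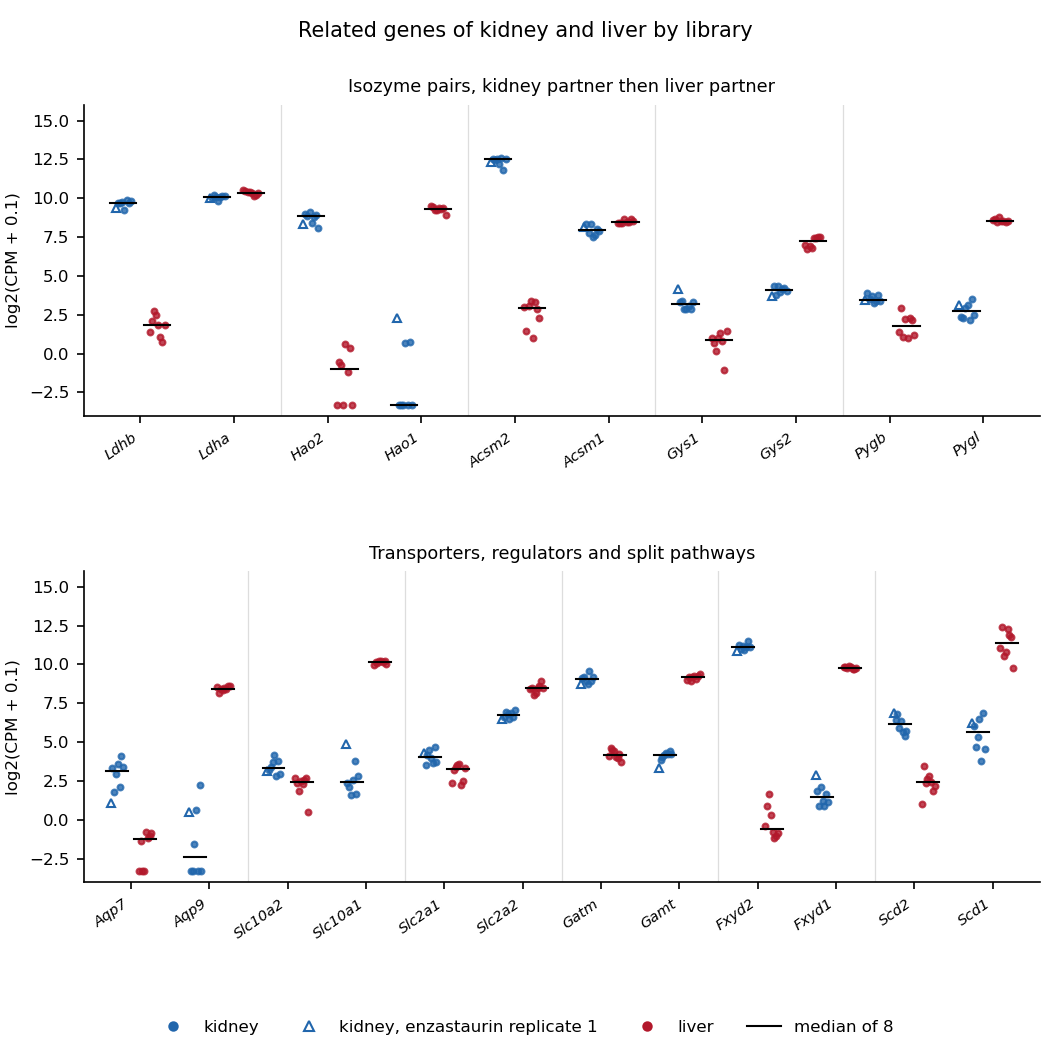
Levels of paired genes in each library (y axis, log2(CPM + 0.1)), with the kidney partner left of the liver partner, 8 kidneys left of 8 livers for each gene, a bar at the median and an open triangle for enzastaurin kidney 1. Hao2 and Hao1 (upper panel) and Gatm and Gamt (lower panel) stand in opposite order, while Ldha lies at similar heights in both organs.

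Many of the listed transcription factors were enriched in 1 of the organs. Of 43 listed factors tested, 18 were kidney-enriched and 12 liver-enriched, against 7.52% and 6.76% of all genes. Pax8, of kidney development, had 50.8 to 75.6 CPM (median 60.6) in kidneys and 0 to 1.93 CPM (median 0.168) in livers, a difference of 6.95 ± 0.27. Emx2, a homeobox factor of the kidney's developing ducts, had 17.6 to 42.3 CPM in kidneys and 1 count in livers. Esrrg, an oestrogen-related receptor of the distal tubule, had 46.6 to 67.2 CPM (median 58.5) in kidneys and 0.976 to 4.37 CPM (median 2.56) in livers, and Ppargc1a, the coactivator of mitochondrial genes, had 73.0 to 122 CPM (median 98.9) in kidneys and 4.51 to 17.2 CPM (median 12.1) in livers, a difference of 3.03 ± 0.16. Foxa2, a pioneer factor of liver, had 0 to 0.672 CPM in kidneys, from 2 counts, and 59.5 to 112 CPM (median 79.9) in livers. Cebpa, of hepatocyte identity, had 5.54 to 9.32 CPM (median 7.53) in kidneys and 156 to 246 CPM (median 173) in livers, a difference of -4.69 ± 0.12, and Prox1, a homeobox factor of hepatocytes, had 1.56 to 10.9 CPM (median 3.47) in kidneys and 149 to 205 CPM (median 179) in livers. Factors common to both were Hnf4a, with 232 to 392 CPM (median 343) in kidneys and 468 to 720.0 CPM (median 514) in livers and a difference of -0.71 ± 0.12 inside the shared band, and Nr3c1, the glucocorticoid receptor, with 84.4 to 167 CPM (median 148) in kidneys and 76.1 to 113 CPM (median 85.3) in livers and overlapping ranges.

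Hox genes, which record the position of a tissue along the body axis, were higher in kidney without exception among the 18 that passed the filter of 33 listed, with a median log2 difference of 6.18, or 5.85 with genes absent from a tissue set at their bound. Hoxd8 had 97.2 to 186 CPM (median 142) in kidneys and 0 to 0.893 CPM (median 0) in livers. Hoxa9 had 36.5 to 51.8 CPM (median 41.4) in kidneys and 0 to 0.507 CPM (median 0) in livers, and Hoxc10 had 21.7 to 52.6 CPM (median 34.6) in kidneys and 0 to 0.507 CPM (median 0) in livers. Hoxa5 and Hoxb4 were above 0 in every liver. Hoxa5 had 31.2 to 45.5 CPM in kidneys and 1.29 to 5.37 CPM in livers, and Hoxb4 had 8.28 to 18.6 CPM in kidneys and 1.19 to 2.93 CPM in livers. Hoxb5 was the least unequal, with 3.56 to 7.39 CPM in kidneys and 1.29 to 4.03 CPM in livers, overlapping, and a difference of 1.12 ± 0.27.

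Genes of epithelial junctions were divided within families. Cldn2, the cation-permeable claudin of the proximal tubule, had 572 to 832 CPM (median 665) in kidneys and 88.7 to 124 CPM (median 102) in livers, and Cldn10 had 298 to 415 CPM (median 333) in kidneys and 0 to 1.49 CPM (median 0.188) in livers. Cldn1, a sealing claudin, was lower in kidney, with 2.02 to 5.76 CPM (median 4.77) in kidneys and 37.7 to 79.6 CPM (median 54.1) in livers. Cdh16, kidney-specific cadherin, had 251 to 360.5 CPM (median 312) in kidneys and no count in livers, at least 1962-fold higher. Gjb1, connexin 32 of hepatocyte gap junctions, had 8.10 to 13.4 CPM (median 10.9) in kidneys and 972 to 1167 CPM (median 1081) in livers, a difference of -6.59 ± 0.13. The common scaffolds Tjp1 and Ocln were at shared levels, with intervals of -0.13 to 0.52 and -0.69 to 0.04. Of 23 tested, 10 were higher and 10 lower, with a median of -0.12, or 11 and 10 with a median of 0.48 under library totals.

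The list of the sodium pump, proton pump and chloride channels also holds genes that are not pumps. Of its 18 tested members, 15 were higher and 3 lower in kidney. Regulators of the sodium pump stood in opposite order: Fxyd2, the gamma subunit of kidney, had 1875 to 2912 CPM (median 2222) in kidneys and 0.336 to 3.04 CPM (median 0.566) in livers, and Fxyd1, phospholemman, had 7.39 CPM in enzastaurin kidney 1, 1.77 to 4.21 CPM in the other 7 kidneys and 822 to 974 CPM (median 881) in livers. The vacuolar proton pump had unequal subunits: Atp6v1a was higher by 4.12 ± 0.12, while Atp6v0d1 was at a shared level, higher by 0.45 ± 0.09 with 67.8 to 98.2 CPM in kidneys and 55.0 to 69.5 CPM in livers and a narrow overlap. Carbonic anhydrases were divided as well: Car2 had 215 to 509 CPM (median 348) in kidneys and 2.23 to 6.45 CPM (median 4.91) in livers, Car4 had 135 to 231 CPM (median 189.7) in kidneys and 0 to 1.49 CPM (median 0) in livers and Car3 had 308 CPM in enzastaurin kidney 1, 25.5 to 79.2 CPM in the other 7 kidneys and 7918 to 15660.3 CPM (median 10284) in livers.

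Hormone and vitamin systems that run between the organs had their steps in different places. Agt, angiotensinogen, had 1.78 to 26.9 CPM (median 7.15) in kidneys and 403 to 533 CPM (median 502) in livers. Ren1, renin, which cleaves it, had 6.20 to 26.6 CPM (median 11.8) in kidneys and 0 to 0.375 CPM (median 0) in livers, and Ace, which makes angiotensin II, had 32.3 to 69.6 CPM (median 46.8) in kidneys and 0 to 1.29 CPM (median 0.504) in livers. Agtr1a, its receptor, was present in both and lower in kidney, with 47.1 to 75.5 CPM (median 59.9) in kidneys and 126 to 194 CPM (median 155) in livers. The brush border peptidases Ggt1, which breaks down glutathione, and Mep1a, a subunit of meprin, had 787 to 986 CPM and 584 to 1658 CPM in kidneys, from 1 and 2 counts in all livers. Anpep and Dpp4, other peptidases of that membrane, were lower in kidney, with differences of -2.33 ± 0.16 and -0.93 ± 0.10. Vdr, the vitamin D receptor, had 265 to 766 CPM (median 519) in kidneys and 0 to 0.893 CPM (median 0) in livers, and Cyp24a1, which inactivates vitamin D, had 19.2 to 96.8 CPM (median 58.4) in kidneys and no count in livers. Cyp2r1, the 25-hydroxylase, had 0 to 2.95 CPM (median 0.207) in kidneys and 11.6 to 22.4 CPM (median 16.9) in livers. Gulo, the last enzyme of vitamin C synthesis, had 13.4 CPM in enzastaurin kidney 1, 0 to 1.49 CPM in the other 7 kidneys and 508 to 719 CPM (median 641) in livers. Aldh1a1, a retinal dehydrogenase, had 100.1 CPM in enzastaurin kidney 1, 33.0 to 64.2 CPM in the other 7 kidneys and 3393 to 5166 CPM (median 4098) in livers.

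In the growth hormone and IGF axis, Ghr, the growth hormone receptor, was at a shared level, with 363 to 639 CPM (median 506) in kidneys and 500.3 to 639 CPM (median 563) in livers and an interval of -0.44 to 0.08. Igf1, its main product in liver, had 2.66 to 24.9 CPM (median 6.54) in kidneys and 1292 to 1592 CPM (median 1378) in livers, and Igf1r, the receptor of IGF1, had 21.2 to 68.5 CPM (median 43.3) in kidneys and 0 to 1.52 CPM (median 0.336) in livers. Hormone and receptor thus stood in opposite order. The binding proteins were divided: Igfbp2 had 2.02 CPM in enzastaurin kidney 1, 0 to 0.443 CPM in the other 7 kidneys and 233 to 434 CPM (median 299) in livers, Igfbp5 had 98.3 to 243 CPM (median 159.8) in kidneys and 3.87 to 12.2 CPM (median 6.65) in livers, and Igfbp4 was abundant in both, with 889 to 1559 CPM (median 1346) in kidneys and 2150.0 to 2623 CPM (median 2323) in livers. Mup3, a major urinary protein of the male liver under growth hormone control, had 212 CPM in enzastaurin kidney 1, 0 to 0.737 CPM in the other 7 kidneys and 12897 to 19473 CPM (median 15993) in livers.

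Of 19 genes of iron and metal metabolism, 12 were lower and 3 higher in kidney. Hamp, hepcidin, the hormone that limits iron release, had 44.3 CPM in enzastaurin kidney 1, no count in the other 7 kidneys and 3219 to 6522 CPM (median 4431) in livers. Slc40a1, the iron exporter ferroportin on which it acts, had 24.8 to 55.8 CPM (median 39.1) in kidneys and 197 to 377 CPM (median 273) in livers. Tfr2, a sensor of transferrin, had 8.74 CPM in enzastaurin kidney 1, 0 to 2.59 CPM in the other 7 kidneys and 197 to 272 CPM (median 244) in livers, whereas Tfrc, the uptake receptor, was at a shared level, with 27.5 to 50.3 CPM in kidneys and 10.1 to 48.1 CPM in livers, overlapping. Fth1, ferritin heavy chain, was shared, with 2958 to 4272 CPM (median 3558) in kidneys and 2136 to 3385 CPM (median 2693) in livers. Mt1, metallothionein, varied more within livers than between organs, with 87.7 to 226 CPM (median 138) in kidneys and 36.0 to 463 CPM (median 96.8) in livers.

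Transcripts of the respiratory chain come from the mitochondrial and the nuclear genome. Of 8 mitochondrial genome transcripts tested, 6 were higher in kidney and none lower, with a median log2 difference of 1.53, or 2.11 under library totals. mt-Nd1 had 9748 to 23823 CPM (median 15281) in kidneys and 3666 to 5734 CPM (median 4476) in livers, and mt-Cytb had 10419 to 27158 CPM (median 14952) in kidneys and 4895 to 6634 CPM (median 5972) in livers. mt-Nd4, by contrast, was at a shared level, with 13642 to 27358 CPM (median 19238) in kidneys and 12257 to 18949.8 CPM (median 16217) in livers and an interval of -0.21 to 0.86. Of 69 nuclear genes of oxidative phosphorylation, 46 were at a shared level, 31 were higher and 22 lower, with a median of 0.11, or 46 and 9 with a median of 0.70 under library totals. Cox8a, of cytochrome oxidase, had 1252 to 2106 CPM (median 1613) in kidneys and 259 to 346 CPM (median 285) in livers, and Atp5b, the beta subunit of ATP synthase, had 1362 to 1728 CPM in kidneys and 830.3 to 972 CPM in livers. Cox7a1, the muscle-type isoform, was higher by 2.63 ± 0.28 at a low level, with 4.70 to 16.05 CPM in kidneys and 0.645 to 2.98 CPM in livers.

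Genes of protein synthesis and turnover leaned toward liver under TMM. The 63 ribosomal genes tested, whose many near-identical copies make counts uncertain, were higher for 9 and lower for 37, with a median of -0.71, or for 18 and 27 with a median of -0.12 under library totals. Rpl4 had 493 to 749 CPM (median 602) in kidneys and 2231 to 2948 CPM (median 2363) in livers, and Rpl13a had 319 to 497 CPM (median 371) in kidneys and 111 to 152 CPM (median 132) in livers, in opposite order. The 34 proteasome genes were higher for 6 and lower for 23, with 20 at a shared level and a median of -0.63. Under library totals 13 of them were higher and 12 lower, with a median of -0.04. Psmb8, a subunit of the immunoproteasome, had 3.36 to 15.7 CPM (median 9.72) in kidneys and 31.2 to 67.2 CPM (median 37.3) in livers, a difference of -2.13 ± 0.22, and Psma7, a core subunit, had 187 to 246 CPM in kidneys and 143 to 198 CPM in livers. Genes of the secretory endoplasmic reticulum were higher for 2 and lower for 23 of 28, with a median of -1.20, or for 5 and 18 with a median of -0.62 under library totals. Pdia6, a disulfide isomerase, had 185 to 239.9 CPM (median 222) in kidneys and 693 to 1282 CPM (median 861) in livers, and Sdf2l1, a partner of BiP, had 1.34 to 7.37 CPM (median 3.18) in kidneys and 36.1 to 129 CPM (median 58.2) in livers. Canx, calnexin, was at a shared level, with 248 to 407 CPM in kidneys and 311 to 396 CPM in livers.

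**Figure D5:**
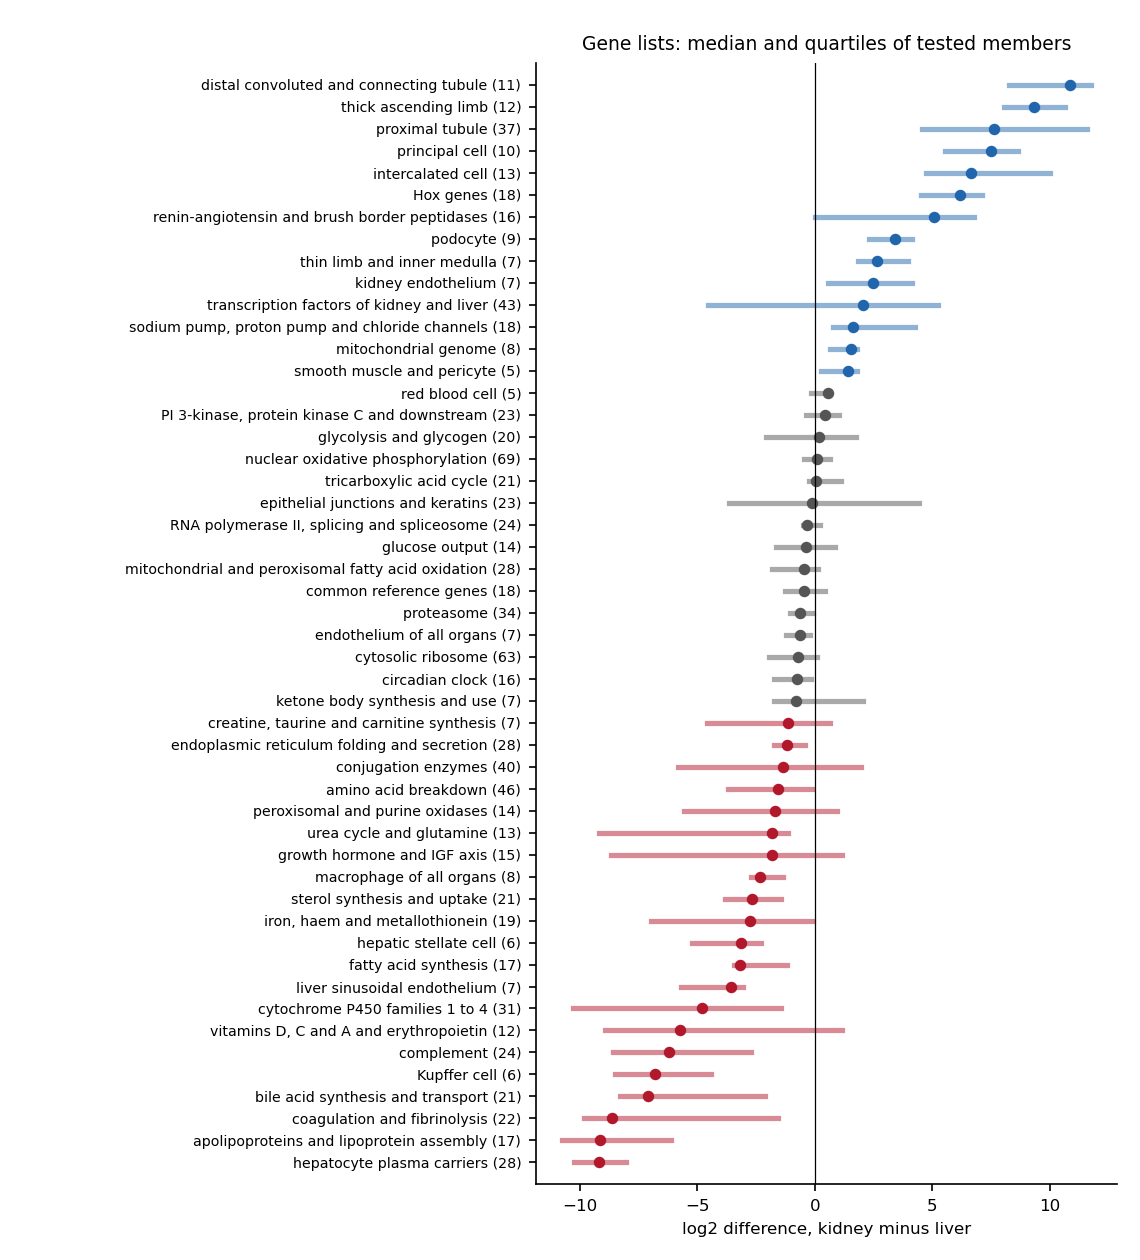
Median (point) and quartiles (line) of the log2 difference of kidney minus liver over the tested members of each list with at least 5 of them (x axis, log2 units), with the number of members tested beside the name and lists of a median above 1 in blue, under -1 in red and between in grey. The nephron lists lie right of 0 and the plasma protein lists left of it, and the median of the nuclear oxidative phosphorylation list is 0.11.

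Splicing and transcription genes were at a shared level for 17 of 24, with a median of -0.32 that became 0.27 under library totals. Hnrnpk, an RNA-binding protein, had 217 to 284 CPM in kidneys and 219.8 to 247 CPM in livers. Genes often used to normalise such measurements were not all equal. Actb, beta actin, had 375 to 1009 CPM (median 551) in kidneys and 719 to 2216 CPM (median 1236) in livers, overlapping, and a difference of -1.12 ± 0.21. B2m, beta 2 microglobulin, had 268 to 585 CPM (median 369.5) in kidneys and 3831 to 4629.9 CPM (median 4107) in livers, a difference of -3.45 ± 0.19. Ywhaz, a 14-3-3 protein, had 166 to 224 CPM (median 189) in kidneys and 53.5 to 73.9 CPM (median 59.7) in livers, a difference of 1.63 ± 0.09, in the other direction. Tbp, the TATA-binding protein, was at a shared level, with 15.1 to 21.4 CPM in kidneys and 10.1 to 20.6 CPM in livers and an interval of 0.04 to 0.59. Over the 18 listed, 5 were higher and 12 lower, with a median of -0.48, or 7 and 8 with a median of 0.12 under library totals. With TMM, 7 of the 18 were at a shared level, beside 33.9% of all genes tested. Clock genes, whose levels depend on the hour of collection, which the labels do not give, were higher for 2 and lower for 10 of 16, with a median of -0.75, or for 4 and 6 with a median of -0.16 under library totals. Nr1d1, the repressor REV-ERB alpha, had 20.7 to 42.4 CPM (median 27.3) in kidneys and 109 to 208 CPM (median 168) in livers, and Clock was at a shared level, with 8.28 to 16.2 CPM in kidneys and 9.43 to 20.6 CPM in livers.

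The kinases that the compounds inhibit were present in both organs. Pik3ca, the catalytic subunit p110 alpha of phosphoinositide 3-kinase, had 103 to 193 CPM (median 159.8) in kidneys and 39.3 to 60.5 CPM (median 47.1) in livers, a difference of 1.70 ± 0.13. Pik3r1, its main regulatory subunit, had 17.5 to 35.4 CPM (median 21.6) in kidneys and 31.0 to 53.2 CPM (median 42.6) in livers, overlapping, and a difference of -0.91 ± 0.13, so the subunits were in opposite order. Prkcd, protein kinase C delta, had 30.2 to 53.2 CPM (median 44.4) in kidneys and 4.88 to 15.1 CPM (median 8.21) in livers, a difference of 2.37 ± 0.18. Prkcb, the beta isoform against which enzastaurin was developed, was low in both organs, with 0.668 to 3.65 CPM in kidneys and 1.29 to 7.13 CPM in livers, overlapping, and a difference of -1.07 ± 0.35. Akt2, a kinase downstream, was at a shared level, with 22.0 to 35.4 CPM in kidneys and 21.3 to 32.2 CPM in livers. Without an untreated tissue in the comparison, an effect of the compounds on these levels cannot be told apart from the organ.

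The abundant genes at a shared level, ranked by the higher of their means, included Fth1 and mt-Nd4, described above. Atp5g3, subunit c of ATP synthase, had 2942 to 3798 CPM (median 3409.9) in kidneys and 2245 to 2575 CPM (median 2364) in livers, a difference of 0.49 ± 0.14. Selenop, the selenium carrier of plasma, had 2728 to 5607 CPM (median 3904) in kidneys and 3392 to 4178 CPM (median 4035) in livers, a difference of -0.02 ± 0.18 and an interval of -0.40 to 0.36. Cyb5a, cytochrome b5, had 2564 to 3563 CPM (median 3016) in kidneys and 2844 to 4372 CPM (median 3489) in livers, and Tmbim6, a calcium regulator of the endoplasmic reticulum, had 2146 to 3414 CPM (median 2625) in kidneys and 2061 to 2463 CPM (median 2303) in livers. At the other end, the largest ratios in favour of kidney included Cltrn, collectrin, a partner of amino acid transporters, with 1730.3 to 2788 CPM (median 2293) in kidneys and 0 to 1.29 CPM (median 0) in livers, Akr1c21, a hydroxysteroid dehydrogenase, with 1317 to 3135 CPM (median 2013) in kidneys and 0 to 0.750 CPM (median 0.254) in livers, and Dnase1, the secreted DNase, with 888 to 2325 CPM (median 1201) in kidneys and 0 to 0.750 CPM (median 0) in livers. The largest in favour of liver included several major urinary protein genes, close copies whose counts are uncertain; Mup17 had 34.9 CPM in enzastaurin kidney 1, 0 to 0.443 CPM in the other 7 kidneys and 1153 to 13696 CPM (median 7956) in livers. Asgr2, a subunit of the asialoglycoprotein receptor, had 2.02 CPM in enzastaurin kidney 1, 0 to 0.192 CPM in the other 7 kidneys and 425 to 512 CPM (median 459) in livers.

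The contrast was also taken within each compound. With enzastaurin, 3967 genes were higher and 3803 lower in kidney (66.9% called). With GDC-0941, 3925 were higher and 3694 lower (65.6%). Called in both and in the same direction were 6715 genes, or 86.4% of the enzastaurin calls and 88.1% of the GDC-0941 calls, and 2, Rwdd3 and Rhobtb1, were called in opposite directions. The difference between the contrasts was called by edgeR for 0 of 11615 genes, with 889 at an unadjusted p under 0.05, 7 called by DESeq2 and 0 by limma-voom. The smallest p-values belonged to genes whose adjusted p was 0.595. Nfe2l2, the factor NRF2 of the oxidative stress response, averaged 73.0 ± 6.77 CPM in enzastaurin kidneys and 44.99 ± 4.33 CPM in enzastaurin livers, and 62.0 ± 8.73 CPM in GDC-0941 kidneys and 70.9 ± 10.9 CPM in GDC-0941 livers (SD, n = 4 each). Its log2 difference between kidney and liver was 0.87 ± 0.19 larger with enzastaurin. Nat8, an N-acetyltransferase that completes mercapturic acids, averaged 757 ± 50.2 CPM in enzastaurin kidneys and 132 ± 32.5 CPM in enzastaurin livers, and 879 ± 113 CPM in GDC-0941 kidneys and 75.3 ± 14.4 CPM in GDC-0941 livers, and its difference was -1.03 ± 0.25 on the same scale. Rwdd3, a regulator of SUMO conjugation, averaged 5.46 ± 0.729 CPM in enzastaurin kidneys and 9.82 ± 1.83 CPM in enzastaurin livers, and 13.7 ± 3.98 CPM in GDC-0941 kidneys and 8.47 ± 2.05 CPM in GDC-0941 livers. Rhobtb1, an atypical GTPase, averaged 66.1 ± 3.11 CPM in enzastaurin kidneys and 50.8 ± 7.87 CPM in enzastaurin livers, and 28.6 ± 5.46 CPM in GDC-0941 kidneys and 38.9 ± 5.03 CPM in GDC-0941 livers. In both genes the livers of the compounds lay closer together than the kidneys did. Hamp2, the second hepcidin gene of the mouse, had 24.2 CPM in enzastaurin kidney 1 and 0 to 0.737 CPM in the other 7 kidneys, and it averaged 61.7 ± 7.94 CPM in enzastaurin livers and 2797 ± 1864 CPM in GDC-0941 livers. An adjusted p that misses the threshold does not show that the compounds leave the contrast equal.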

How the data were processed

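RNA of kidney and liver was measured by CEL-seq, which reads the 3′ end of polyadenylated RNA, per the labels' protocols. The authors deposited raw counts per gene for 43629 genes in 42 libraries, and all columns matched a label. Per the submitters' processing notes, bcl2fastq 1.8.4, Trimmomatic 0.32, STAR 2.5.2b and featureCounts 1.5 were used with genome build mm10. The annotation release, the strand setting and any collapse of molecular identifiers were not given in the sources at hand, so overlapping and antisense genes cannot be told apart and counts may hold PCR copies. Gene symbols for 42548 identifiers came from GENCODE M21 (GRCm38).

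Counts of the 16 libraries were filtered with filterByExpr (minimum count 10), scaled with TMM and tested with edgeR 4.0.16 (R 4.3.3) by quasi-likelihood, with tissue and compound as terms. A fit of 4 group means gave the contrast within each compound and the difference between them. All p-values were adjusted over the 11615 genes tested, at a threshold of 0.05. A value after ± is the standard error of a log2 difference, which is kidney minus liver, or the SD of a mean. CPM are TMM-scaled. A gene with no count in an organ was set at 3 counts over its 8 libraries, giving an "at least" ratio that covers counting error only. The shallowest library held 1157094 counts, where 5 CPM stands for few counts, so single values near that level are imprecise. No library repeated another: the lowest chi-square per gene between replicates was 6.35. The fits were also run on simulated counts in which few genes differed, equally in both directions. Most genes were called in the real data, so that run cannot test the assumption behind TMM.

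Members, lists, pairs and tests were chosen with earlier results of these data known. Named genes were the 12 with the largest ratio in each direction, up to 6 called members of each list with the highest level and up to 4 called against it, members of the pairs, the 10 most abundant shared genes with up to 3 shared members of each list, the 10 with the smallest p of the difference between compounds, and the label checks. Some genes that these rules choose are not reported here. Outside this rule, Wt1, Slc22a8, Slc22a12, Scnn1g, Rhbg, Afm, Cp, Apob, Mttp, Apom, Serpinf2, F13b, Proc, Cyp7a1, Nr0b2, Cfd, Fabp4, Cpt1a, Acadm, Acox3, Idh3g, Sucla2, Fasn, Srebf1, Asl, Tat, Fah, Mut, Cyp4a12a, Pax8, Emx2, Esrrg, Ppargc1a, Foxa2, Cebpa, Prox1, Nr3c1, Hoxb4, Hoxb5, Cldn1, Car2, Car4, Ren1, Ace, Cyp2r1, Gulo, Igfbp2, Cox7a1, Psmb8, Sdf2l1, Tbp, Clock, Prkcb, Akt2, Rhobtb1, Gbp11 and Fam19a5 were picked after their values were seen. The alternatives were RLE scaling, library totals, DESeq2 1.42.0, limma-voom (limma 3.58.1), no filter, a replicate block, each library left out, AS-703026 libraries added, satellite-like models (13 models that share sequence with the repeat-derived Gm10800) removed or their share as a covariate, and other thresholds. Leaving out the 3 kidneys with at least 2% of such counts was chosen after seeing the data.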

Additional observations from a re-analysis of the deposited data

Results flagged for a closer look

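For each named gene with a mean of at least 5 CPM, the 8 libraries of an organ were searched for 1 library apart from the rest, using Dixon's 95% critical value for the gap to the nearest library as a share of the range. Chance alone sets a library apart in about 1 set in 20. Of 448 sets, 56 had such a library, and 25 of the 56 were enzastaurin kidney 1 as the highest kidney. In enzastaurin kidney 1 most of these genes were transcripts of liver. Hamp had 44.3 CPM there and no count in the other 7 kidneys, and Mup3 had 212 CPM against 0 to 0.737 CPM. As a share of the range, the gap was 0.992 for Alb, 0.997 for Ahsg, 0.979 for Apoa2, 0.943 for Fgb, 0.941 for Trf, 0.889 for Gc, 0.995 for Serpina3k, 0.998 for Apoa1, 0.826 for Apoe, 0.724 for Fga, 0.864 for C3, 0.593 for Slc10a1, 0.794 for Cps1, 0.983 for Otc, 0.960 for Cyp3a11, 0.921 for Bhmt, 0.997 for Mup3 and 1.000 for Hamp. Among the other genes highest in it, Car3 had 308 CPM against 25.5 to 79.2 CPM, Acta2 34.3 CPM against 3.99 to 15.9 CPM and Gys1 17.5 CPM against 7.18 to 10.5 CPM, with gaps of 0.810 for Car3, 0.729 for Mgst1, 0.813 for Cyp2f2, 0.536 for Aldh1a1, 0.606 for Acta2, 0.681 for Gys1 and 0.556 for Fam19a5. This library had the fewest counts of the 16, and the part of its liver transcripts in other results was not tested beyond the values given without it.

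Other kidneys stood apart for fewer genes, and each value below is set against the range of the other 7 kidneys. In GDC-0941 kidney 3, the gap of the highest value was 0.723 for Spp1, 0.623 for Ttr, 0.532 for Slc51b and 0.527 for Dpp4, and that of the lowest 0.701 for Clic5, 0.569 for Emx2 and 0.654 for Clock. Clic5 had 74.5 CPM against 125 to 147 CPM. Spp1 had 232 CPM against 102 to 138 CPM. Ttr had 1226 CPM against 166 to 565 CPM. In GDC-0941 kidney 1, the gap of the highest value was 0.545 for Plau and 0.590 for Pik3r1, and that of the lowest 0.578 for Miox, 0.654 for Proc, 0.595 for Fah and 0.554 for Ldha. Miox had 1445 CPM against 2370 to 3046 CPM. Proc had 76.6 CPM against 104 to 119 CPM. In GDC-0941 kidney 2, the gap of the highest value was 0.589 for Cyp2j5 and 0.529 for Selenop, and that of the lowest 0.603 for Fasn. Fasn had 7.09 CPM against 12.9 to 16.8 CPM. GDC-0941 kidneys 1 and 3 are also the kidneys with the most counts of satellite-like models, and the part of that share in these values was not tested.

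Among livers, set against the range of the other 7 livers, enzastaurin liver 2 was highest for adipocyte genes. In enzastaurin liver 2, the gap of the highest value was 0.715 for Lpl, 0.569 for Serpinf2, 0.983 for Cfd, 0.919 for Fabp4 and 0.588 for Oxct1. Cfd had 340 CPM against 0 to 5.79 CPM. Fabp4 had 169 CPM against 8.30 to 21.3 CPM. Lpl had 164 CPM against 28.9 to 67.5 CPM. In enzastaurin liver 1, the gap of the highest value was 0.573 for Ugt2b38, 0.545 for Agxt2 and 0.625 for Igf1. Ugt2b38 had 28.4 CPM against 3.56 to 14.2 CPM. In enzastaurin liver 4, the gap of the highest value was 0.564 for Cox8a and 0.581 for Rpl4. Rpl4 had 2948 CPM against 2231 to 2532 CPM. In GDC-0941 liver 2, the gap of the highest value was 0.579 for Bdh2 and 0.586 for Cebpa. Cebpa had 246 CPM against 156 to 193 CPM. In GDC-0941 liver 4, the gap of the highest value was 0.545 for Mt1 and 0.763 for Hnrnpk, and that of the lowest 0.530 for Hao1. Hao1 had 476 CPM against 604 to 718 CPM. Mt1 had 463 CPM against 36.0 to 230 CPM.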

How the results depend on the processing

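The number of genes called between kidney and liver lay within 1.5 times of 8805 under RLE scaling (8835), DESeq2 (8768), limma-voom (8954), no filter (10314 of 28036), the satellite share as a covariate (8855), its models removed (8839), the AS-703026 libraries added (9566) and the kidneys of high satellite share left out (9026, chosen after seeing the data). Leaving out 1 library gave 8750 to 8941 called, 850 to 887 kidney-enriched, 776 to 827 liver-enriched and 3832 to 3928 shared genes, and 0 to 1 gene for the difference between compounds. That gene was Fam19a5, called without enzastaurin liver 1. Library totals gave 1126 kidney-enriched, 610 liver-enriched and 3237 shared genes. Tested against a log2 difference of 1 by edgeR's glmTreat, 4297 genes were called. A ratio of at least 4 gave 1196 liver-enriched genes, and an interval within -0.5 and 0.5 left 1252 shared genes; both follow from the threshold itself. For the difference between compounds, DESeq2 called 7 genes (Rnf152, Mllt10, Nfe2l2, Gbp11, Nat8, Hamp2 and Hykk) and edgeR with no filter called 169 of 28036, against 0; the cause was not tested. DESeq2 gave no adjusted p for 61 genes called by edgeR, of which 55 were liver-enriched.

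Of 7128 values of named genes under these alternatives, 6995 kept their side of the threshold, with the sign also kept where the gene was called with TMM. A further 81 passed it in addition, 50 lost it and 2 were of called genes that changed sign. Changes of sign in genes not called with TMM were not counted. Both sign changes of called genes came from library totals: Ldha at 0.30 and Acsm1 at 0.060, against -0.29 and -0.53 with TMM. Hnrnpk, Fth1 and Tbp, all at shared levels, lost their calls under 15, 13 and 12 alternatives. The replicate numbers gave no clear pairing of the organs. Over 3794 genes, a kidney and the liver of its number correlated at -0.11 to 0.28 in their deviations. The value was over 0.1 for 2 of 8, and 2 of 8 kidneys matched their own number best. A kidney and a liver of another number correlated at -0.20 to 0.33. Organs of the same mouse need not deviate together, so these values cannot decide whether same-numbered libraries share a mouse. With a replicate block 8658 genes were called, with 874 kidney-enriched, 785 liver-enriched and 3853 shared genes and 0 for the difference between compounds. Depth limits small ratios and low genes, and a gene with no count in an organ is only bounded there.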
